A study of Mus musculus with 20 samples.

Results

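Transcripts of the CC chemokines Ccl2, Ccl3, Ccl4, Ccl5, Ccl6, Ccl7, Ccl8, Ccl9 and Ccl11 were measured by poly-A RNA sequencing in tumors that HEPA1-6 cells, a mouse hepatoma line, had formed within 4 weeks under the skin of C57/BL6 mice. These 9 genes were taken by symbol from a table of 14633 genes, and 9 of 9 passed the filter on low values (1 FPKM or more in at least 5 libraries) that left 14385 genes for testing. The tumors had received an antibody against the T cell-attracting chemokine CXCL10 plus GSK343 (n = 5 libraries), that antibody without GSK343 (n = 5), a control antibody plus GSK343 (n = 5), or the control antibody without GSK343 (n = 4). GSK343 inhibits EZH2, the histone methyltransferase of Polycomb repressive complex 2. The series thus asks how EZH2 inhibition alters the tumor's transcripts when CXCL10 is blocked or left free. Every group carried an antibody, replicate 4 of the control antibody was not analysed here, and neither doses nor schedules are in the labels. The labels number 5 replicates, the series' design text speaks of 3, and neither ties a tumor to a separate animal. The p-values below therefore measure only the spread between these samples, which may in part be technical.

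CC chemokines are small secreted proteins that bind G protein-coupled receptors on leukocytes and direct their migration along a gradient. Ccl2 and Ccl7 act through CCR2 and call monocytes out of the bone marrow and into tissue, Ccl8 in the mouse acts through CCR8, and Ccl11, or eotaxin, draws eosinophils through CCR3. Ccl3, Ccl4 and Ccl5 are made by activated T cells, NK cells and macrophages, and Ccl3 and Ccl5 can act through CCR1. Ccl6 and Ccl9 are rodent chemokines of myeloid cells that act through CCR1.

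Values are FPKM (fragments scaled for transcript length and for the library's mapped total), as deposited; the unit was inferred from the values, since the table does not name it. Sequencing depth is unknown, so no counting error can be given. FPKM summed to between 533606 and 629679 per library, and replicates within a group correlated at 0.942 to 0.977. The hepatoma identity was visible in each library: Alb lay between 1819 and 4401 FPKM and Afp between 1427 and 3499 FPKM. Replicates 3, 4 and 5 of control antibody plus GSK343 had the 3 highest skeletal muscle marker scores (4.97, 6.96 and 4.82). Replicates 4 and 3 of anti-CXCL10 alone came next (4.10 and 3.66), so the cut after 3 libraries is not a clear gap. Counts of calls in the chemokines, most lists and the neighbouring genes are given with and without those 3 libraries below. Sequencing sample numbers ran from 1 to 10 among the control-antibody libraries and again from 1 to 10 among the anti-CXCL10 libraries, so the antibody and that set of libraries cannot be told apart.

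The 9 chemokines were high together in the tumors given control antibody plus GSK343. Summed over the 9 genes, their level was 344, 367, 404, 387 and 256 FPKM with anti-CXCL10 plus GSK343 and 395, 311, 396, 548 and 283 FPKM with anti-CXCL10 alone. With control antibody plus GSK343 the sum was 816, 1196, 1457, 860.3 and 804 FPKM, against 269.5, 378, 579 and 308 FPKM with control antibody alone. The 5 libraries of control antibody plus GSK343 lay above every other library, and the other 3 groups overlapped one another. Against control antibody alone, 8 of the 9 genes were higher with control antibody plus GSK343 (limma on log2(FPKM + 1), Benjamini-Hochberg adjusted p under 0.05 over all tested genes), where 4.36% of the 14385 genes were called higher and 1.11% lower. Adding anti-CXCL10 to GSK343 was accompanied by lower levels of 9 of 9 against control antibody plus GSK343, where 6.64% of genes were called lower and 3.48% higher. These 2 comparisons share the 5 libraries of control antibody plus GSK343, so they are not independent of each other. The count of 8 fell to 3 (Ccl3, Ccl4 and Ccl6) when the fit held only the 2 groups compared, and ranged from 4 to 9 when each library was left out in turn, with 4 without control antibody replicate 1 and 5 without control antibody replicate 5. In bulk tissue, more cells of a type and more RNA per cell cannot be told apart.

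**Figure D1:**
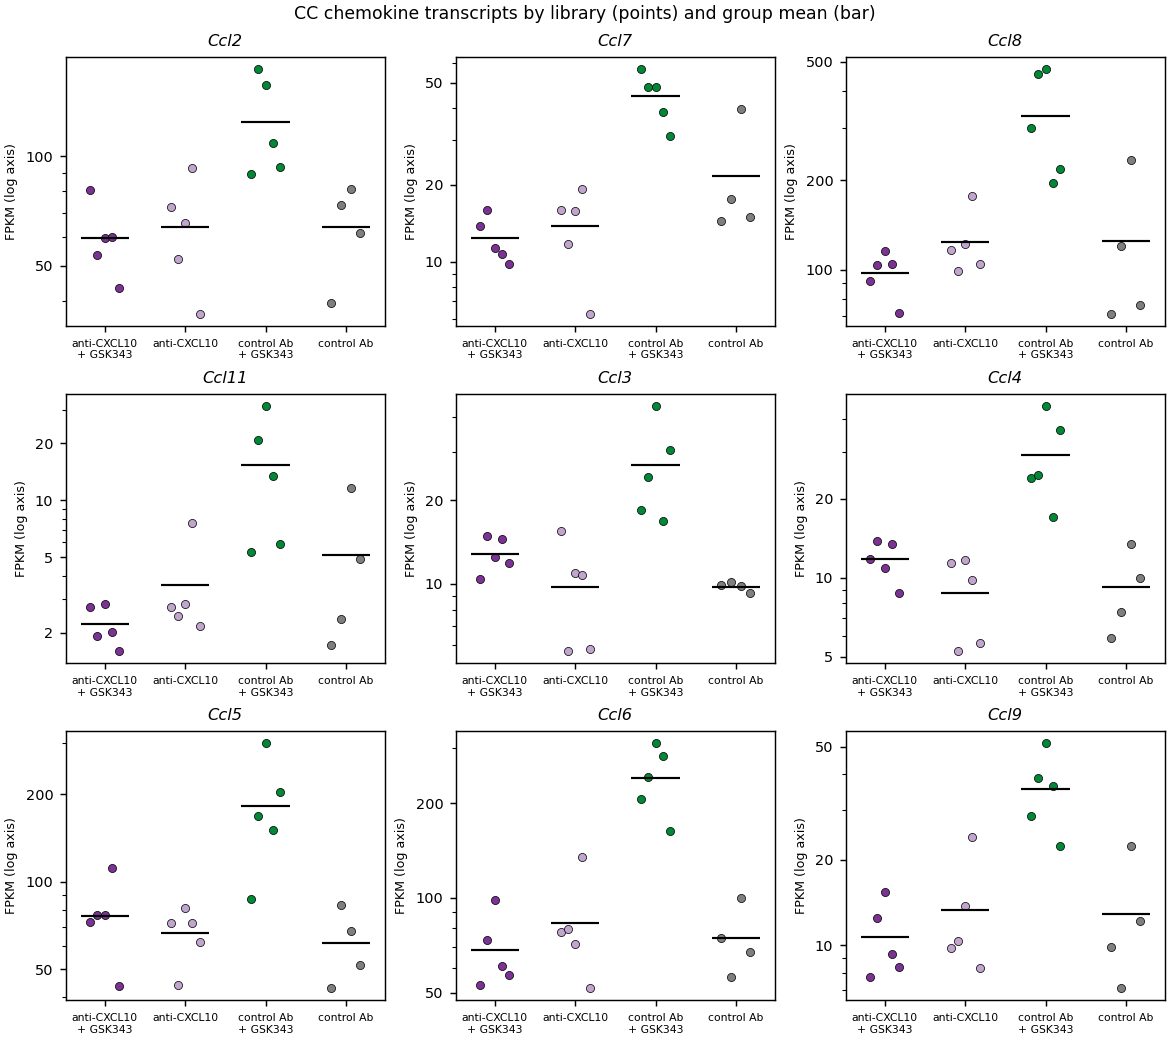
FPKM of each chemokine (vertical axes, log scale) in every library (points) with the group mean (bar), for the 4 treatment groups on the horizontal axes. For 6 of the 9 genes the 5 libraries of control antibody plus GSK343 lie above all 4 of control antibody alone, and for 8 of the 9 the 5 libraries of anti-CXCL10 plus GSK343 lie below them.

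Among the monocyte and eosinophil attractants, Ccl2, the founding CCR2 ligand, had 80.8, 53.6, 59.4, 59.9 and 43.3 FPKM with anti-CXCL10 plus GSK343 and 72.5, 52.2, 65.6, 92.5 and 36.8 FPKM with anti-CXCL10 alone. It had 89.3, 173, 157, 109 and 93.4 FPKM with control antibody plus GSK343, against 39.4, 73.6, 81.5 and 61.5 FPKM with control antibody alone. Replicates 2 and 3 of control antibody plus GSK343 were the highest of all, and neither that group and control antibody alone nor that group and anti-CXCL10 plus GSK343 overlapped. Ccl2 rose by 0.95 ± 0.27 on the log2(FPKM + 1) scale (SE here and below, adjusted p = 0.0461) with GSK343 under control antibody. It fell by 1.03 ± 0.25 (adjusted p = 0.0163) in anti-CXCL10 plus GSK343 against control antibody plus GSK343. The rise was close to the threshold: it did not pass without replicate 1, 2 or 5 of control antibody (adjusted p = 0.195, 0.0586 and 0.108) or replicate 2, 3 or 4 of control antibody plus GSK343 (0.115, 0.128 and 0.0707). Nor did it pass without replicate 1, 2 or 3 of anti-CXCL10 (adjusted p = 0.0553, 0.0506 and 0.0576) or replicate 2, 3 or 4 of anti-CXCL10 plus GSK343 (0.0587, 0.0579 and 0.0588).

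Ccl7, the other CCR2 ligand, had 13.8, 16.0, 11.4, 10.8 and 9.78 FPKM with anti-CXCL10 plus GSK343 and 15.9, 11.8, 15.8, 19.3 and 6.25 FPKM with anti-CXCL10 alone. It had 56.5, 48.2, 47.9, 38.6 and 31.0 FPKM with control antibody plus GSK343, against 14.4, 17.7, 39.7 and 15.003 FPKM with control antibody alone. Control antibody replicate 3 lay among the GSK343-treated tumors of its antibody and the other 3 controls lay below them, whereas the 5 libraries with both agents lay below all 5 of control antibody plus GSK343. Ccl7 rose by 1.10 ± 0.30 (adjusted p = 0.0358) with GSK343 under control antibody and fell by 1.76 ± 0.28 (adjusted p = 0.00207) in anti-CXCL10 plus GSK343 against control antibody plus GSK343. The rise was lost without replicate 1, 2 or 5 of control antibody (adjusted p = 0.144, 0.085 and 0.123) or replicate 1, 2, 3 or 4 of control antibody plus GSK343 (0.052, 0.0795, 0.0878 and 0.0552).

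Ccl8 was the most abundant of the 9 in each group. It had 91.7, 104, 116, 105 and 71.7 FPKM with anti-CXCL10 plus GSK343 and 117, 99.1, 123, 178 and 105 FPKM with anti-CXCL10 alone. With control antibody plus GSK343 it had 300.3, 455, 472, 195 and 219 FPKM, against 71.0, 120.2, 234 and 76.0 FPKM with control antibody alone. Replicates 1, 2 and 3 of control antibody plus GSK343 lay above all controls, replicates 4 and 5 lay below control antibody replicate 3, and no library with both agents reached the lowest of control antibody plus GSK343. Ccl8 rose by 1.46 ± 0.32 (adjusted p = 0.0132) with GSK343 under control antibody, a call lost without control antibody replicate 1 (adjusted p = 0.0613) or 5 (0.057). It fell by 1.67 ± 0.30 (adjusted p = 0.0034) in anti-CXCL10 plus GSK343 against control antibody plus GSK343.

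Ccl11, the eotaxin gene, had the lowest levels. It had 2.74, 1.91, 2.83, 2.01 and 1.60 FPKM with anti-CXCL10 plus GSK343 and 2.75, 2.45, 2.84, 7.62 and 2.18 FPKM with anti-CXCL10 alone. With control antibody plus GSK343 it had 5.35, 20.9, 31.4, 13.5 and 5.86 FPKM, against 1.73, 2.36, 11.6 and 4.89 FPKM with control antibody alone. Control antibody replicate 3 was again high, and 3 of the 5 libraries of control antibody plus GSK343 exceeded it. The difference of 1.40 ± 0.47 with GSK343 under control antibody (95% interval 0.41 to 2.40) did not pass (adjusted p = 0.1005), although it passed without control antibody replicate 3 (1.84, adjusted p = 0.0264) or without replicate 1 of control antibody plus GSK343 (1.67, adjusted p = 0.0315). Between anti-CXCL10 plus GSK343 and control antibody plus GSK343 the groups did not overlap, and Ccl11 fell by 2.08 ± 0.45 (adjusted p = 0.00814), the largest fall of the 9.

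Of the rodent myeloid chemokines, Ccl6 had 52.9, 73.7, 98.2, 60.9 and 56.7 FPKM with anti-CXCL10 plus GSK343 and 78.1, 79.6, 71.3, 135 and 51.7 FPKM with anti-CXCL10 alone. It had 206, 243, 309, 283 and 163 FPKM with control antibody plus GSK343, against 74.4, 56.2, 99.7 and 67.3 FPKM with control antibody alone. Its 5 libraries of control antibody plus GSK343 exceeded every other library. Ccl6 rose by 1.68 ± 0.25 (adjusted p = 0.00185) with GSK343 under control antibody, the largest rise of the 9, and fell by 1.80 ± 0.23 (adjusted p = 0.000845) in anti-CXCL10 plus GSK343 against control antibody plus GSK343. Both calls held whichever of the 19 libraries was left out.

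Ccl9 had 7.73, 12.5, 15.5, 9.33 and 8.39 FPKM with anti-CXCL10 plus GSK343 and 9.78, 10.4, 13.8, 24.2 and 8.33 FPKM with anti-CXCL10 alone. It had 28.4, 38.9, 51.3, 36.4 and 22.447 FPKM with control antibody plus GSK343, against 9.84, 7.08, 22.445 and 12.1 FPKM with control antibody alone. The groups under control antibody touched without overlapping, at treated replicate 5 and control replicate 3, and the 5 libraries with both agents lay below all 5 of control antibody plus GSK343. Ccl9 rose by 1.46 ± 0.32 (adjusted p = 0.0132) with GSK343 under control antibody, which did not pass without control antibody replicate 1 (adjusted p = 0.0522). It fell by 1.63 ± 0.30 (adjusted p = 0.00377) in anti-CXCL10 plus GSK343 against control antibody plus GSK343.

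Of the chemokines of activated T and NK cells, Ccl3 had 10.4, 14.9, 12.5, 14.4 and 11.9 FPKM with anti-CXCL10 plus GSK343 and 15.5, 5.70, 10.9, 10.7 and 5.80 FPKM with anti-CXCL10 alone. It had 18.5, 24.3, 43.7, 16.9 and 30.4 FPKM with control antibody plus GSK343, against 9.84, 10.1, 9.77 and 9.21 FPKM with control antibody alone. The 4 control libraries were nearly equal, and each library of control antibody plus GSK343 lay above every other library. Ccl3 rose by 1.29 ± 0.26 (adjusted p = 0.00799) with GSK343 under control antibody. It fell by 0.94 ± 0.25 (adjusted p = 0.0228) in anti-CXCL10 plus GSK343 against control antibody plus GSK343, a call lost without replicate 3 or 5 of control antibody plus GSK343 (adjusted p = 0.0616 and 0.0521) or replicate 1 or 5 of anti-CXCL10 plus GSK343 (0.056 and 0.0537).

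Ccl4, its close relative, had 11.8, 13.8, 10.9, 13.4 and 8.73 FPKM with anti-CXCL10 plus GSK343 and 11.4, 5.26, 11.7, 9.77 and 5.66 FPKM with anti-CXCL10 alone. It had 23.9, 24.6, 44.8, 17.0 and 36.6 FPKM with control antibody plus GSK343, against 5.92, 7.44, 13.4 and 9.97 FPKM with control antibody alone. As for Ccl3, the libraries of control antibody plus GSK343 exceeded all others. Ccl4 rose by 1.56 ± 0.28 (adjusted p = 0.00473) with GSK343 under control antibody and fell by 1.19 ± 0.26 (adjusted p = 0.00923) in anti-CXCL10 plus GSK343 against control antibody plus GSK343.

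Ccl5, known as RANTES and made in quantity by effector T cells, had 72.4, 76.5, 76.9, 111 and 43.8 FPKM with anti-CXCL10 plus GSK343 and 72.2, 44.2, 81.2, 72.2 and 61.9 FPKM with anti-CXCL10 alone. It had 86.9, 169, 299, 151 and 203 FPKM with control antibody plus GSK343, against 43.0, 83.3, 67.7 and 51.6 FPKM with control antibody alone. Replicate 1 of control antibody plus GSK343 lay just above the highest control and below replicate 4 of anti-CXCL10 plus GSK343, the only overlap of these groups. Ccl5 rose by 1.48 ± 0.30 (adjusted p = 0.00863) with GSK343 under control antibody and fell by 1.19 ± 0.28 (adjusted p = 0.0145) in anti-CXCL10 plus GSK343 against control antibody plus GSK343. For Ccl3, Ccl4, Ccl5 and Ccl6 the rise passed whichever of the 19 libraries was left out.

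Counted over the 9 genes, groups without overlap occurred for 6 of 9 with GSK343 under control antibody, where 4.05% of the 14385 genes had all treated libraries higher. They occurred for 8 of 9 in anti-CXCL10 plus GSK343 against control antibody plus GSK343, where 4.65% of genes had all libraries with both agents lower. The median log2 difference of the 9 was 1.46 with GSK343 under control antibody, beside -0.03 over all genes tested, and -1.63 in anti-CXCL10 plus GSK343 against control antibody plus GSK343, beside 0.03.

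When CXCL10 was blocked, no change of the 9 chemokines with GSK343 was detected. In anti-CXCL10 plus GSK343 against anti-CXCL10 alone, limma called 0 of 9, and 0 of 14385 genes (0% in either direction), while 418 genes had an unadjusted p under 0.05, with 0 of the 9 among them. Differences ran from -0.41 ± 0.45 for Ccl11 (95% interval -1.35 to 0.53) to 0.44 ± 0.25 for Ccl3 (-0.07 to 0.96), each with adjusted p = 0.9997. For Ccl6 the interval was -0.73 to 0.25 under anti-CXCL10, and 1.15 to 2.20 under control antibody. For Ccl4 it was -0.12 to 0.98 under anti-CXCL10, so a rise of up to 0.98 could not be told from none. All 9 genes overlapped between these groups.

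Without GSK343, the antibody against CXCL10 was not accompanied by a detected change in the 9 genes either. Against control antibody alone, limma called 0 of 9 in anti-CXCL10 alone, where 2 of 14385 genes were called lower (0.0139%) and 0% higher, and 979 genes but 0 of the 9 had an unadjusted p under 0.05. Ccl7 differed most, at -0.57 ± 0.30 (95% interval -1.19 to 0.05, adjusted p = 0.740), and its 5 libraries overlapped with the controls. Against control antibody alone, the tumors given both agents also had 0 of 9 called, with 1 gene called lower (0.00695%), 0% higher and 724 genes at an unadjusted p under 0.05. Ccl7 was the 1 member among those 724, at -0.66 ± 0.30 (unadjusted p = 0.0382, adjusted p = 0.935). Ccl3 had 5 of 5 libraries with both agents above all 4 controls, as did 1.13% of genes, and its difference was 0.35 ± 0.26 (not past the threshold, adjusted p = 0.935).

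The difference between the GSK343 changes under anti-CXCL10 and under control antibody was tested as an interaction. It was negative for 9 of 9 genes, with a median of -1.32 beside 0.04 over all genes, and it passed for Ccl6 alone of the 9 (-1.92 ± 0.34, adjusted p = 0.0489), where 0.0626% of genes were called lower and 0% higher. The Ccl6 call passed in 5 of 19 fits that left out 1 library, those without replicate 3 of control antibody (adjusted p = 0.0244), 1 or 5 of control antibody plus GSK343 (0.0145 and 0.0428), 5 of anti-CXCL10 (0.0208) or 3 of anti-CXCL10 plus GSK343 (0.0361). In the other 14 it lay between 0.0605 and 0.154. For the other 8 genes the interaction ran from -0.85 ± 0.36 for Ccl3 (adjusted p = 0.317) to -1.81 ± 0.65 for Ccl11 (adjusted p = 0.228), and Ccl8 came nearest to the threshold (-1.79 ± 0.44, adjusted p = 0.0953). Unadjusted, 9 of 9 had a p under 0.05, as had 1862 of the 14385 genes. Without replicate 1 of control antibody plus GSK343 the interaction also passed for Ccl8, Ccl5 and Ccl9 (adjusted p = 0.0428, 0.0303 and 0.0443), and without control antibody replicate 3 for Ccl8 and Ccl9 (0.0269 and 0.0471).

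**Figure D2:**
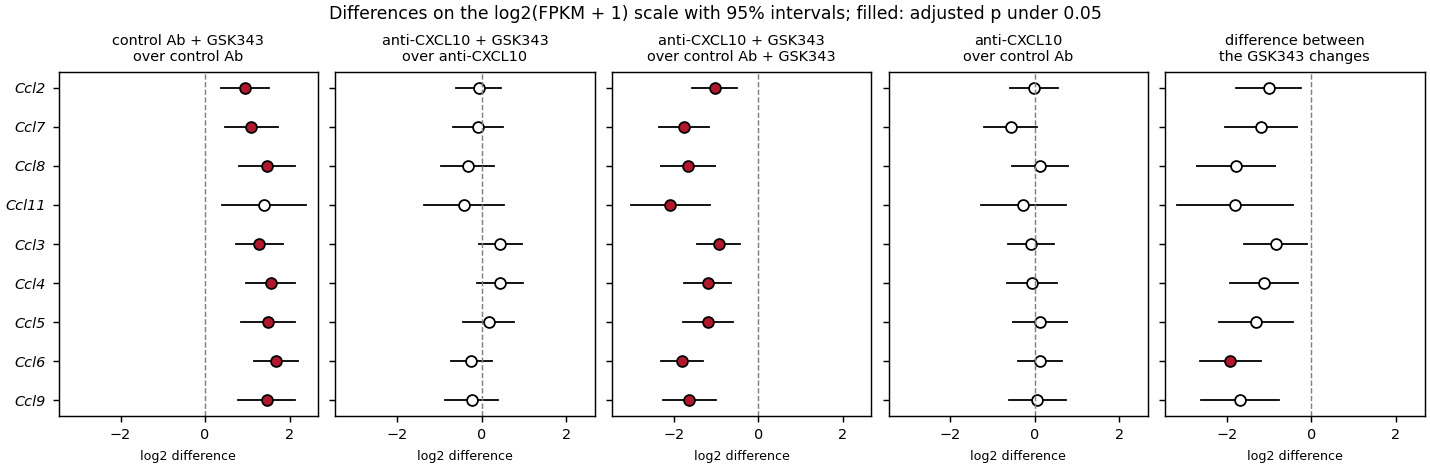
Log2(FPKM + 1) difference of each chemokine (points, horizontal axes) with its 95% interval (lines) in 4 comparisons and, at the right, the interaction; filled points passed at adjusted p under 0.05. Rises of 0.95 to 1.68 under control antibody stand beside differences of -0.41 to 0.44 under anti-CXCL10, and the interaction passed for Ccl6 at -1.92.

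In order of level, the 9 genes fell into an upper set of 4 and a lower set of 5 in each group. With control antibody alone the means were 125 ± 75.6 FPKM for Ccl8 (SD, n = 4), 74.4 ± 18.4 for Ccl6, 64.0 ± 18.3 for Ccl2 and 61.4 ± 17.8 for Ccl5, followed by 21.7 ± 12.1 for Ccl7, 12.9 ± 6.71 for Ccl9, 9.74 ± 0.387 for Ccl3, 9.18 ± 3.28 for Ccl4 and 5.14 ± 4.503 for Ccl11. The libraries of the upper set lay above those of the lower set in each group, except that with control antibody alone Ccl2 in replicate 1 (39.4 FPKM) lay just under Ccl7 in replicate 3 (39.7 FPKM). Within a set, neighbours in the order overlapped, except for Ccl11 with anti-CXCL10 plus GSK343, whose highest library (2.83 FPKM) lay below the lowest of Ccl9 (7.73 FPKM). With control antibody plus GSK343 the order began with Ccl8 at 328 ± 130 FPKM (SD, n = 5), Ccl6 at 241 ± 58.6 and Ccl5 at 182 ± 78.0, with Ccl2 next at 124 ± 38.5. Ccl5 stood above Ccl2 in that order and in both anti-CXCL10 groups, by less than their spread. Spread between control libraries was widest for Ccl11, with a coefficient of variation of 87.6%, and narrowest for Ccl3, at 3.98%.

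Single libraries were high for many of the 9 genes together. Control antibody replicate 3 was the highest of its group for 7 of 9 (all but Ccl3 and Ccl5), replicate 3 of control antibody plus GSK343 for 7 of 9 (all but Ccl2 and Ccl7), and anti-CXCL10 replicate 4 for 6 of 9. After the group means were subtracted, deviations on the log2(FPKM + 1) scale were closest for Ccl6 and Ccl9, with Pearson r = 0.91 over 19 libraries. Ccl9 and Ccl11 followed at 0.83, Ccl3 and Ccl4 at 0.80, and Ccl2 and Ccl11 at 0.76, whereas Ccl5 was least like Ccl7 (0.15) and Ccl6 (0.17). Ccl5 and Ccl3, and Ccl5 and Ccl4, both stood at 0.66. These values describe 19 libraries that share a mapped total per library, and no test is attached to them.

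**Figure D3:**
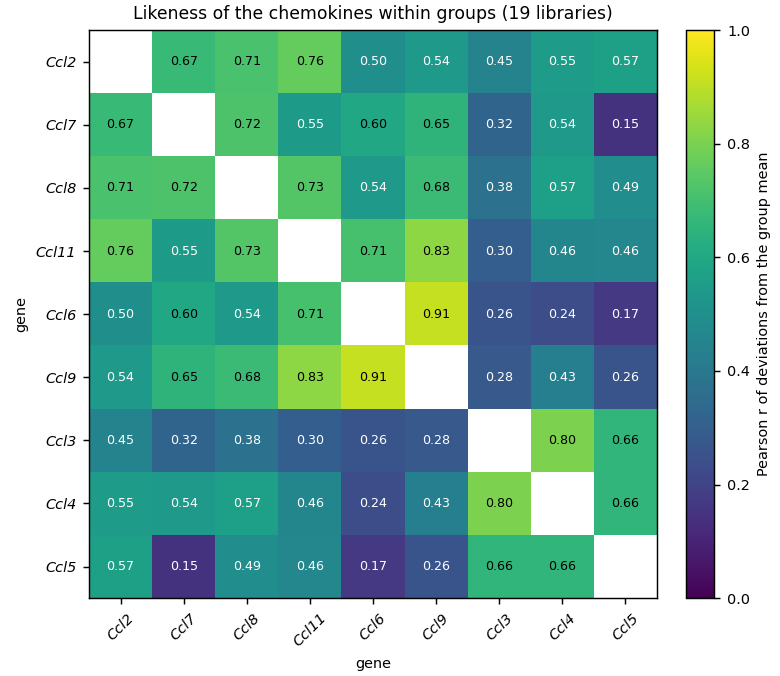
Pearson r between the 9 chemokines (rows and columns) over 19 libraries, from deviations of log2(FPKM + 1) from the group mean; the colour scale runs from 0 to 1. Ccl6 and Ccl9 (0.91) and Ccl3 and Ccl4 (0.80) are bright, and Ccl5 is dark against Ccl7 (0.15) and Ccl6 (0.17).

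The 9 genes lie in 2 clusters on chromosome 11 (build GRCm38). Ccl2 (82035571 to 82037453), Ccl7 (82045712 to 82047525), Ccl11 (82057823 to 82062955) and Ccl8 (82115185 to 82116799), all on the plus strand, span 81.23 kb. Ccl5 (83525778 to 83530518), Ccl9 (83572919 to 83578636), Ccl6 (83587882 to 83593087) and Ccl3 (83647844 to 83649355), on the minus strand, and Ccl4 (83662584 to 83664683), on the plus strand, span 138.9 kb, and 1409 kb separates the clusters. None of the 9 overlaps another listed gene. Of the 14633 genes analysed, 24 that are not CC chemokines lie between the outer ends. With GSK343 under control antibody 5 of the 24 were higher and 0 lower, with a median of 0.08 on the log2 scale. The 5, named after their values were seen, were Slfn4 (1.46), Slfn2 (1.05), AI662270 (0.99), Slfn8 (0.72) and Slfn1 (0.67); Schlafen genes resemble one another in sequence, and how their shared fragments were assigned is unknown. Of the 24, 5 were lower and 0 higher in anti-CXCL10 plus GSK343 against control antibody plus GSK343, with a median of -0.06. The rise was thus measured at chemokine genes of both clusters and at 5 of the 24 other genes. Without the 3 libraries highest in muscle markers, and also with the muscle score as a covariate, 1 of the 24 was higher with GSK343 under control antibody (AI662270). In anti-CXCL10 plus GSK343 against control antibody plus GSK343, 2 were lower without those libraries (Slfn4 and AI662270). There 1 was higher, Rffl, named after its values were seen. With the covariate, 1 was lower (AI662270) and 0 were higher.

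Upstream sequence is shown for Ccl8, the most abundant of the 9, and for Ccl6 and Ccl9, the neighbours whose libraries deviated most alike. Of the 9 genes, 4 had an entry in the RefSeq promoter table (GRCm38.p6), the other being Ccl3. Each line gives the 250 bases before the RefSeq start, 5′ to 3′ on the gene's strand, with capitals for matches to 5 motifs searched on both strands.
Ccl8 chr11:82114935-82115184 (plus strand): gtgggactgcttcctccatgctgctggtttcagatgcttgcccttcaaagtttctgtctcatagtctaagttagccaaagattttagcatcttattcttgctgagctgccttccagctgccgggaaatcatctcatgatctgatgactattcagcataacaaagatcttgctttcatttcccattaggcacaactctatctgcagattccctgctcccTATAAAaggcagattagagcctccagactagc
Ccl9 chr11:83578637-83578886 (minus strand): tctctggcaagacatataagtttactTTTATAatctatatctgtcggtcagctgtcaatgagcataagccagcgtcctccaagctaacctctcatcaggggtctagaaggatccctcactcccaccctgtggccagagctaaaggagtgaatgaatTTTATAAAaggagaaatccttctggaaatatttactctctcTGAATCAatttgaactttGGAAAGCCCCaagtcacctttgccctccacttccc
Ccl6 chr11:83593088-83593337 (minus strand): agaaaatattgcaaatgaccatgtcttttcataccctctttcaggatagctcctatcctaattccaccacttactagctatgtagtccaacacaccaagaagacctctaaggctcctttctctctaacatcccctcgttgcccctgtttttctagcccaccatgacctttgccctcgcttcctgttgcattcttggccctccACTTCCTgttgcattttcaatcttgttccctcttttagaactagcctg

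The Ccl8 window held TATAAA, the TATA box letters, 32 to 27 bases before the start, as 12.368% of 32851 windows of that length held it somewhere. The Ccl9 window held TGAATCA, a match to the AP-1 letters TGANTCA (6.749% of windows), 53 to 47 bases before the start, and GGAAAGCCCC, a match on the opposite strand to the NF-kB consensus (1.412% of windows), 35 to 26 bases before it. It also held TATAAA in 3 places, at 224 to 219, 94 to 89 and 92 to 87 bases before the start, the last 2 overlapping on opposite strands. The Ccl6 window held ACTTCCT, a match on the opposite strand to the ETS letters AGGAAGT (7.686% of windows), 48 to 42 bases before the start. The STAT letters TTCNNNGAA (7.02% of windows) were in none of the 4 windows, and the Ccl3 window held no match to any of the 5. The closest local alignment of the Ccl6 and Ccl9 windows covered 17 columns, of which 16 were identical. Such matches describe letters and show neither binding nor a cause.

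The genes whose levels followed each chemokine most closely over the 19 libraries were sought among 8318 genes outside the 9 that averaged at least 5 FPKM. Genes with only a clone, accession or serial name were left out. Among the 9 themselves, Ccl6 and Ccl9 (Pearson r = 0.97) and Ccl3 and Ccl4 (0.94) were closer to each other than to the genes named below. Ccl5 was closest to Cd3d, a chain of the T cell receptor complex (Pearson r = 0.97, Spearman rho = 0.92, within groups 0.91), and to the T cell adhesion gene Cd2 (0.96, 0.96 and 0.90). Ccl4 was closest to Cd3g (Pearson r = 0.93, rho = 0.92, within groups 0.79) and Cd3d (0.93, 0.91 and 0.78), and Ccl3 to Socs1, an inhibitor of cytokine signalling (0.90, 0.84 and 0.74), and Coro1a (0.90, 0.83 and 0.72). Ccl9 was closest to Adam8, a membrane protease of myeloid cells (0.95, 0.93 and 0.91), and Dok2 (0.95, 0.92 and 0.85).

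Ccl2 was closest to Mnda, a nuclear antigen gene of myeloid cells (Pearson r = 0.93, rho = 0.91, within groups 0.84), and to Pdcd1lg2, a ligand of the PD-1 receptor (0.93, 0.92 and 0.86). Ccl8 was closest to the transcription factor gene Nfil3 (0.94, 0.87 and 0.89) and to Srgn, the proteoglycan of leukocyte granules (0.94, 0.89 and 0.85), and Ccl11 to Olfm1 (0.92, 0.87 and 0.81) and Srgn (0.91, 0.84 and 0.85). Ccl7 was closest to Dnajb6 (0.92, 0.91 and 0.71) and Alox5ap, needed for leukotriene synthesis (0.91, 0.86 and 0.82). For Ccl6 these were Lilrb4 (0.94, 0.87 and 0.77) and Gp49a (0.93, 0.89 and 0.73), whose near-identical sequences make the split of fragments between them uncertain. The values include the difference between the groups, except within groups, and no test is attached.

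Of 15 other CC chemokines listed, 11 were tested, and with GSK343 under control antibody 3 were higher and 1 lower, with a median of 0.89 on the log2 scale. Ccl12, a CCR2 ligand between Ccl11 and Ccl8, had 9.17 ± 2.99 FPKM with anti-CXCL10 plus GSK343, 24.6 ± 6.51 with control antibody plus GSK343 (SD, n = 5 each) and 7.93 ± 3.15 with control antibody alone (n = 4). It rose by 1.54 ± 0.26 (adjusted p = 0.00337) with GSK343 under control antibody. Ccl22, a CCR4 ligand of regulatory T cells, rose by 1.01 ± 0.27 (adjusted p = 0.0341), and Ccl24, a second eotaxin, by 1.08 ± 0.30 (adjusted p = 0.041), to 155 ± 75.9 FPKM against 69.7 ± 25.2 FPKM with control antibody alone. Ccl25, a CCR9 ligand, fell by 0.43 ± 0.12 (adjusted p = 0.0452). Of the 11, 3 were lower and 0 higher in anti-CXCL10 plus GSK343 against control antibody plus GSK343, with a median of -0.86. They were Ccl12 (-1.35 ± 0.25, adjusted p = 0.00369), Ccl22 (-0.94 ± 0.25, adjusted p = 0.0262) and Ccl17, named after its values were seen (-1.11). Without the 3 libraries highest in muscle markers 0 of the 11 passed with GSK343 under control antibody (median 0.38), and 1 (Ccl12) was lower in anti-CXCL10 plus GSK343 against control antibody plus GSK343; with the muscle covariate 0 passed in either (medians 0.58 and -0.48).

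Some receptors of these ligands were higher as well. Of 10 CC chemokine receptors listed, 4 were in the table and 3 were tested, since Ccr8, the mouse receptor of Ccl8, was under the filter. Ccr8 had 0.337 ± 0.0712 FPKM with anti-CXCL10 plus GSK343, 0.328 ± 0.155 with anti-CXCL10 alone, 1.09 ± 0.336 with control antibody plus GSK343 and 0.415 ± 0.182 with control antibody alone. Ccr3, the receptor of Ccl11, was not analysed here. With GSK343 under control antibody 2 of 3 were higher, with a median of 0.81. Ccr1 had 14.3 ± 3.99 FPKM with control antibody plus GSK343 and 7.89 ± 2.89 with control antibody alone, and rose by 0.81 ± 0.21 (adjusted p = 0.0274). Ccr2 rose by 0.82 ± 0.22 (adjusted p = 0.0376), and Ccr7, which guides cells to lymph nodes, did not pass (0.36 ± 0.17, adjusted p = 0.252). In anti-CXCL10 plus GSK343 against control antibody plus GSK343, 2 of 3 were lower: Ccr2 (-0.75 ± 0.21, adjusted p = 0.0299) and Ccr7 (-0.51 ± 0.16, adjusted p = 0.0468). Ccr1 did not pass there (-0.58 ± 0.19, adjusted p = 0.0658). In both comparisons 0 of 3 passed without the 3 libraries highest in muscle markers (medians 0.77 and -0.54), and 0 of 3 with the muscle covariate (medians 0.62 and -0.54).

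Of 5 decoy or atypical receptors, 3 were tested. Ackr1, which binds chemokines without signalling, had 1.58 FPKM with control antibody plus GSK343 on average, against 0.466 FPKM with control antibody alone, and rose by 0.77 ± 0.20 (adjusted p = 0.0347). Ccrl2 did not pass there (0.76 ± 0.22, adjusted p = 0.0539) and fell by 0.95 ± 0.21 (adjusted p = 0.00953) in anti-CXCL10 plus GSK343 against control antibody plus GSK343. Of 8 genes that bind or clear chemokines, 0 were higher and 1 was lower with GSK343 under control antibody, the syndecan gene Sdc1 (-0.26 ± 0.07, adjusted p = 0.0299). Of these 3 and 8 genes, 0 passed in either comparison without the 3 libraries or with the covariate.

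**Figure D4:**
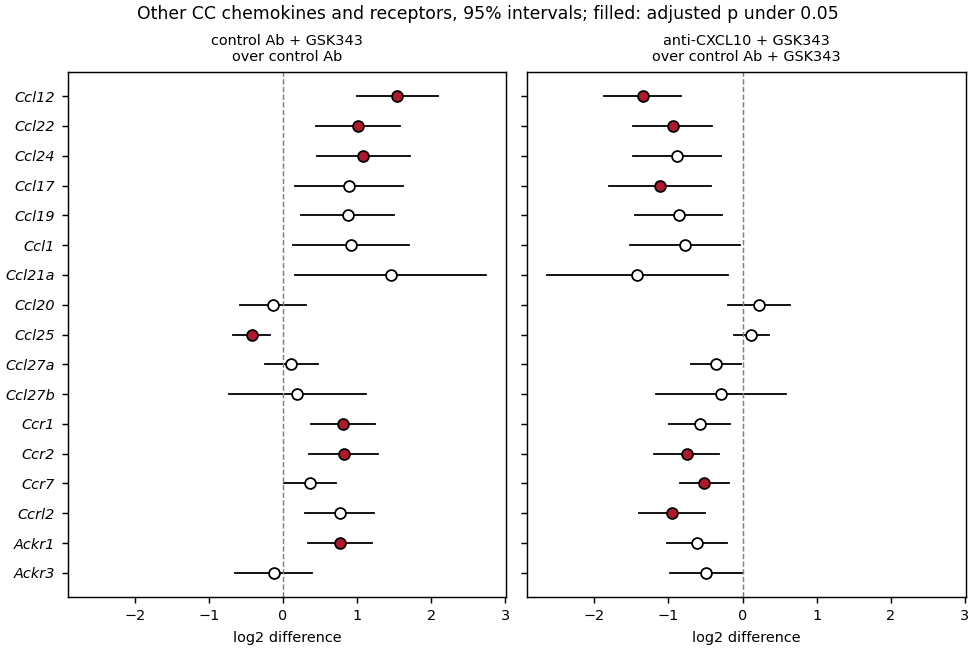
Log2(FPKM + 1) difference (points, horizontal axes) with 95% interval (lines) of the other tested CC chemokines and of CC and atypical receptors, for control antibody plus GSK343 over control antibody (left) and anti-CXCL10 plus GSK343 over control antibody plus GSK343 (right); filled points passed at adjusted p under 0.05. Ccl12 has the largest passing rise (1.54), and Ccr1 and Ccr2 rise by 0.81 and 0.82.

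Of 15 tested inflammatory cytokine and NF-kB genes, 2 were higher with GSK343 under control antibody (median 0.56): Csf1, the macrophage growth factor (0.72 ± 0.16, adjusted p = 0.0128), and Tnf (0.88 ± 0.23, adjusted p = 0.0317). In anti-CXCL10 plus GSK343 against control antibody plus GSK343, 5 of the 15 were lower (median -0.54), among them the NF-kB inhibitor gene Nfkbia (-0.90 ± 0.15, adjusted p = 0.00274). Of 9 tested genes of the type 2 axis, which drives eosinophils, 0 passed with GSK343 under control antibody (median 0.45). The nearest was Chil3, a chitinase-like gene of macrophages (3.07 ± 0.89, adjusted p = 0.052), and in anti-CXCL10 plus GSK343 against control antibody plus GSK343 it fell by 2.70 ± 0.84 (adjusted p = 0.0485). Without the 3 libraries, 0 of the 15 and 0 of the 9 passed with GSK343 under control antibody, as with the muscle covariate. In anti-CXCL10 plus GSK343 against control antibody plus GSK343, Nfkbia alone of the 15 stayed lower under both settings. Of the 9 type 2 genes, 2 were lower in that comparison with all libraries, Chil3 and Gata3, the latter named after its values were seen. Without the 3 libraries Gata3 alone was lower, and with the muscle covariate 0 of the 9 passed.

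Many markers of the cells that make or follow these chemokines passed in the direction of the chemokines, and their part in the chemokine results was not tested. Of 15 monocyte and macrophage markers, 11 were higher with GSK343 under control antibody (median 0.82), among them C1qc (1.05 ± 0.20, adjusted p = 0.0061) and the monocyte gene Ly6c2 (1.52 ± 0.31, adjusted p = 0.00799). Their summed level was 805 to 1055 FPKM with anti-CXCL10 plus GSK343, 721 to 1008 with anti-CXCL10 alone, 1283 to 2262 with control antibody plus GSK343 and 563 to 1101 with control antibody alone, so control antibody plus GSK343 did not overlap the rest. Of 14 T cell markers, 12 were higher (median 1.08), among them Cd2 (1.25 ± 0.22, adjusted p = 0.00457). Their sum was 87.5 to 143 FPKM with anti-CXCL10 plus GSK343, 75.7 to 120.1 with anti-CXCL10 alone, 134 to 336 with control antibody plus GSK343 and 64.0 to 109.6 with control antibody alone, and the lowest library of control antibody plus GSK343 lay within the range of anti-CXCL10 plus GSK343. Of 6 tested NK cell markers 5 were higher (median 1.37), led by Klre1 (1.39 ± 0.20, adjusted p = 0.00185). In anti-CXCL10 plus GSK343 against control antibody plus GSK343, 9 of the 15 monocyte and macrophage, 11 of the 14 T cell and 4 of the 6 NK cell markers were lower. Without the 3 libraries highest in muscle markers, and also with the muscle covariate, 0 markers of the 3 lists passed in either comparison. Without the libraries the medians with GSK343 under control antibody were 0.63 for monocyte and macrophage, 0.75 for T cell and 1.15 for NK cell markers.

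Of 8 eosinophil markers listed, 3 were tested, Epx, Prg2, Il5ra and Ear6 were not analysed here, and Ear1, under the filter, was listed at 0 in each of the 4 control libraries. With GSK343 under control antibody, Alox15, which macrophages also express, rose by 1.28 ± 0.35 (adjusted p = 0.0372), and Siglecf, the defining surface marker, had 1.71 ± 0.681 FPKM against 1.11 ± 0.364 FPKM with control antibody alone, a difference that did not pass (0.34 ± 0.19, adjusted p = 0.366). Ear2, of a family of near-identical genes, did not pass (0.89 ± 0.30, adjusted p = 0.103). The comparison of anti-CXCL10 plus GSK343 against control antibody plus GSK343 had 2 of the 3 lower (median -0.92), Alox15 (-1.32 ± 0.33, adjusted p = 0.0175) and Ear2 (-0.92 ± 0.29, adjusted p = 0.0497), beside the fall of Ccl11. Without the 3 libraries highest in muscle markers 0 of 3 passed with GSK343 under control antibody, and Ear2 alone was lower in anti-CXCL10 plus GSK343 against control antibody plus GSK343; with the muscle covariate 0 passed in either.

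Of 5 tested markers each, 1 neutrophil gene (Retnlg, 1.78 ± 0.42, adjusted p = 0.0193) and 1 dendritic cell gene (Itgax, 1.17 ± 0.26, adjusted p = 0.0132) were higher with GSK343 under control antibody, and 0 of 6 mast cell, 0 of 10 fibroblast, 0 of 8 endothelial and 0 of 8 keratinocyte markers passed. Beside the fall of the 9 chemokines in anti-CXCL10 plus GSK343 against control antibody plus GSK343, 4 of 10 fibroblast, 4 of 5 dendritic cell, 2 of 5 neutrophil and 1 of 6 mast cell markers were lower, and 6 of 13 hepatocyte and hepatoma markers higher (median 0.52). With GSK343 under control antibody, 0 markers of these lists passed without the 3 libraries highest in muscle markers or with the muscle covariate; in anti-CXCL10 plus GSK343 against control antibody plus GSK343 1 of the 13 hepatocyte and hepatoma markers was higher without the libraries, 0 markers of the other lists passed, and 0 passed with the covariate. Their part in the fall was not tested. Of the 13 hepatocyte and hepatoma markers 3 were lower with GSK343 under control antibody (median -0.44), and their sum was 6961 to 11411 FPKM with anti-CXCL10 plus GSK343, 7636 to 11738 with anti-CXCL10 alone, 4664 to 6820 with control antibody plus GSK343 and 7238 to 9153 with control antibody alone. Of 14 skeletal muscle markers 1 was higher there (Pvalb, 3.005 ± 0.84, adjusted p = 0.0437), with a median of 2.59 over the list. The muscle sum was 15.1 to 125 FPKM with anti-CXCL10 plus GSK343, 5.98 to 322 with anti-CXCL10 alone, 53.6 to 2554 with control antibody plus GSK343 and 21.8 to 107 with control antibody alone. With the muscle score as a covariate, 0 of 9 chemokines passed with GSK343 under control antibody (0.76 to 1.54, adjusted p = 0.0617 to 0.5301), and 3 of 9 (Ccl6, Ccl7 and Ccl8) remained lower in anti-CXCL10 plus GSK343 against control antibody plus GSK343. Over all genes, calls in either direction fell from 787 to 6 and from 1456 to 130 in these 2 comparisons. The 3 highest scores (4.82, 4.97 and 6.96) all lay in control antibody plus GSK343, against 1.15 to 2.68 with control antibody alone. The score and the treatment thus cannot be fully told apart. Without the 3 libraries of control antibody plus GSK343 that had the highest muscle scores, which leaves 2 of that group, 0 of 9 passed with GSK343 under control antibody (0.999 to 1.73, adjusted p = 0.0569 to 0.359), and 4 of 9 (Ccl6, Ccl7, Ccl8 and Ccl9) were lower in anti-CXCL10 plus GSK343 against control antibody plus GSK343. Over all genes, 15 and 497 were called in these 2 comparisons without those libraries.

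**Figure D5:**
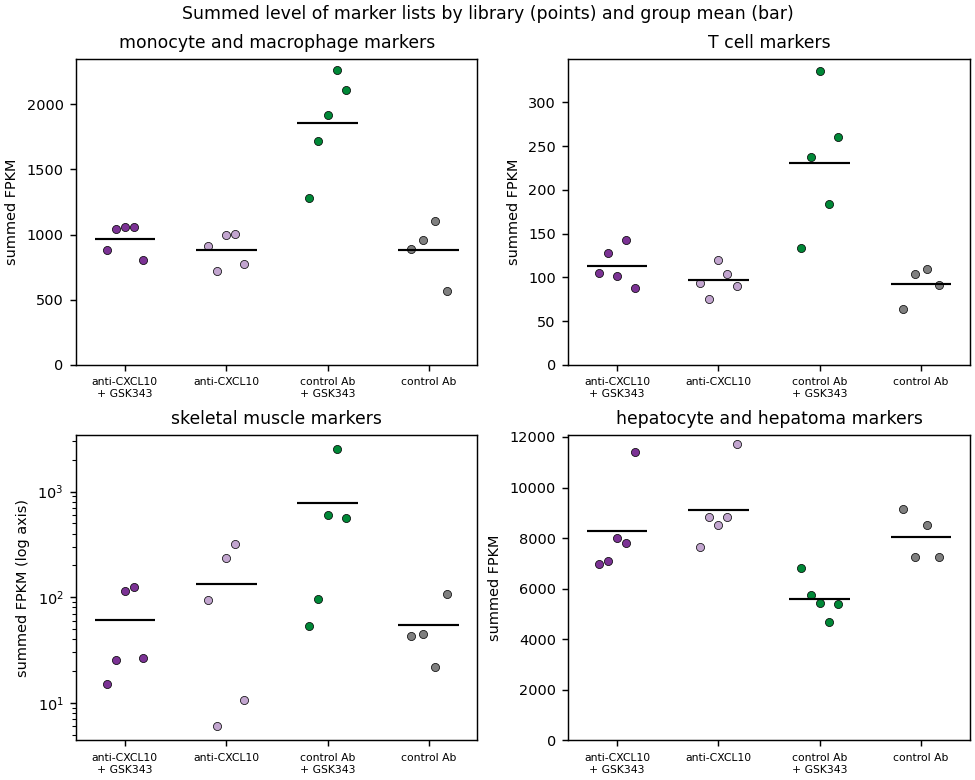
Summed FPKM of 4 marker lists (vertical axes; log scale for skeletal muscle) in every library (points) with the group mean (bar), by treatment group on the horizontal axes. Macrophage sums of control antibody plus GSK343 (1283 to 2262) lie above all others and hepatoma sums (4664 to 6820) below all others, while its muscle sums range from 53.6 to 2554.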

How the data were processed

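Poly-A RNA of 19 HEPA1-6 tumors was analysed in 4 groups. The deposited values are FPKM per gene, a unit inferred from the values. Per the submitters' processing notes, the tools were StringTie 1.3.3b, HTSeq 0.6.0, HISAT2 2.1.0, TopHat2 2.1.0 and Trimmomatic 0.33 and the builds mm10 and GRCm38. Roles and strand setting were not given in the sources used here. A search of low values for whole-read steps over 171 library pairs found at most 0.6% of low genes (under 2 FPKM) on 1 ratio (tolerance 0.1%), so depth is unknown. Rows of a repeated gene ID (8 IDs, 21 of 14646 rows) were summed.

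log2(FPKM + 1) was fitted over 4 group means with limma 3.58.1 (R 4.3.3, statmod 1.5.0; trend, robust), with Benjamini-Hochberg adjustment over 14385 genes, and a gene passed at adjusted p under 0.05. Fold changes of low genes are understated on this scale. The scripts were tested on simulated data. From each list at most 4 genes are named, by smallest p with GSK343 under control antibody. For each chemokine the 2 genes most like it are named, sought outside the 9 and among genes with a given name. The 9 genes, the lists and the tests were chosen with earlier results of these data known. Alternatives were another pseudocount, other filters, a block for the replicate number, only the compared groups in the fit, other scalings, limma without trend and robust steps, a muscle score covariate, and leaving out libraries; for the lists and neighbouring genes the muscle settings were chosen after seeing the data. Some genes of the lists are not reported here.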

Additional observations from a re-analysis of the deposited data

Results flagged for a closer look

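Ccl7 in control antibody replicate 3 stood at 39.7 FPKM, far above the other 3 controls (14.4, 17.7 and 15.003 FPKM), with a gap to the nearest of 0.872 of the group's range. Ccl11 in anti-CXCL10 replicate 4 stood at 7.62 FPKM, far above the other 4 libraries of its group (2.75, 2.45, 2.84 and 2.18 FPKM), with a gap of 0.878 of the range. Such gaps were looked for in 36 sets of libraries, and 2 were found; by Dixon's critical values, normally spread independent values would give one in about 1 in 20 sets, whereas these sets share libraries. The change of Ccl6 with GSK343 differed between the antibodies by -1.92 on the log2 scale (limma interaction, adjusted p = 0.0489).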

How the results depend on the processing

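Of the 9 chemokines, the number called higher with GSK343 under control antibody (8) was 3 with only the compared groups fitted, 0 with the muscle covariate and 0 without the 3 libraries highest in muscle markers; leaving out each library gave 4 to 9. The number lower in anti-CXCL10 plus GSK343 against control antibody plus GSK343 (9) was 3 with the muscle covariate and 4 without the 3 libraries; leaving out each library gave 8 to 9. For the interaction (1), the number was 0 with no filter, with no trend and no robust step, with the muscle covariate and without the 3 libraries; leaving out each library gave 0 to 4. The other 3 comparisons gave 0 of 9 under each alternative run, and a pseudocount of 0.1, a filter of 5 FPKM, median-ratio scaling and quantile normalization left the counts at 8, 9 and 1. Over all genes, 787 calls with GSK343 under control antibody became 233 with the compared groups alone, 6 with the muscle covariate and 15 without the 3 libraries; leaving out each library gave 299 to 1389. The smaller fits also held fewer samples. The causes of these changes were not tested.

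Same-numbered samples of different groups deviated together with r from -0.199 to 0.318 (27 pairs, 12 over 0.1). Samples of different numbers were not compared, so these values cannot decide whether the numbers pair the libraries. The main fit did not take them as pairs. With the replicate block 7, 9 and 1 of the 9 genes passed in those comparisons, Ccl2 being lost with GSK343 under control antibody (0.90, adjusted p = 0.056), and Ccl9 in anti-CXCL10 alone against control antibody turned to -0.013. Over all genes, the interaction had 9 calls in the main fit and 57 with the replicate block.

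Signs turned only among differences that no setting called. In anti-CXCL10 alone against control antibody, Ccl9 was -0.0017 with the muscle covariate and Ccl2 0.0079 under quantile normalization. There, leaving out each library gave -0.23 to 0.16 for Ccl2, -0.27 to 0.060 for Ccl3, -0.24 to 0.11 for Ccl4, -0.029 to 0.28 for Ccl5, -0.072 to 0.27 for Ccl6, -0.086 to 0.48 for Ccl8, -0.17 to 0.35 for Ccl9 and -0.57 to 0.16 for Ccl11. In anti-CXCL10 plus GSK343 against anti-CXCL10 alone it gave -0.25 to 0.080 for Ccl2 and -0.33 to 0.046 for Ccl7. Against control antibody alone, tumors with both agents gave -0.30 to 0.047 for Ccl2, -0.26 to 0.026 for Ccl6, -0.42 to 0.15 for Ccl8 and -0.40 to 0.11 for Ccl9. Unknown depth leaves the counting error of low genes such as Ccl11 unmeasured.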
